A study of Mus musculus with 4 samples.

Results

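The genes described here are the subunits of the proteasome, taken as every gene name on the array that began with Psma, Psmb, Psmc, Psmd or Psme and a number, with Psmb8 and Psmb9 left out. The rule found 42 of the 36869 gene names that non-control probes carried, and it uses no measured value. By known place in the complex, 14 were constitutive core subunits (Psma1 to Psma7 and Psmb1 to Psmb7) and 17 were cap subunits (Psmc1 to Psmc6, Psmd1 to Psmd4, Psmd6 to Psmd8 and Psmd11 to Psmd14). The other 11 names were the tissue-restricted or inducible core subunits Psma8, Psmb10 and Psmb11, the assembly chaperones Psmd5, Psmd9 and Psmd10, the activators Psme1, Psme2b, Psme3 and Psme4, and Psmc3ip. Psmc3ip matched by spelling and encodes a recombination factor, not a subunit.

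The proteasome breaks down proteins that carry ubiquitin chains. Its core is a barrel of stacked rings, in which alpha subunits form the gate and beta subunits hold the protease sites, and its cap binds the ubiquitylated protein, removes the ubiquitin, unfolds the chain with a ring of ATPases and threads it into the core. When proteasome capacity is short, the transcription factor Nrf1 (gene Nfe2l1) is known to raise the subunit genes together through antioxidant response elements, and its relative Nrf2 (Nfe2l2) acts on related elements in oxidative stress. Tfe3 and Tfeb are transcription factors of lysosome genes that bind sites around CACGTG. In macrophages the proteasome also makes peptides for antigen presentation, with inducible beta subunits in place of the constitutive ones.

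Expression was measured in RAW264, a mouse macrophage-like line of BALB/c origin, on 4 one-colour arrays, 1 for each of 4 groups: Tfe3 and Tfeb siRNA with iron, the same siRNA untreated, GFP siRNA with iron, and GFP siRNA untreated. All 4 groups were transfected with an siRNA. Iron was 500 µM FeCl3 for 24 h, begun 48 h after transfection. With 1 array for each group, no difference has a replicate check, so no test, standard error or p-value is given, and siRNA and iron cannot be told apart from any other way in which 2 cultures differed.

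A level is the log2 processed signal minus the 75th percentile of that array. The only error measured was that of spots: 300 probes printed at 10 spots each gave an SD for a log2 difference between 2 arrays of 0.066 at levels above 6, 0.075 from 5 to 6, 0.093 from 4 to 5, 0.14 from 3 to 4, 0.11 from 2 to 3 and 0.10 from 0 to 2. Only 4 to 45 combinations of probe and array stood behind each value below level 6. This spot SD is given beside differences below and leaves out culture, RNA and labelling. On the processed signal scale the 75th percentile stood at 592.7 with siTfe3/Tfeb and iron, 636.3 with siTfe3/Tfeb untreated, 626.9 with siGFP and iron and 619.4 with siGFP untreated. The brightest Tfe3 probe was lower with siTfe3/Tfeb than with siGFP, at -0.55 with iron and -0.72 without iron on the log2 scale. The brightest Tfeb probe was dim and differed by 0.16 with iron and -0.14 without iron, each less than its spot SD of 0.27, so the loss of Tfeb RNA was not visible at this signal. Of 10 macrophage marker genes on the array, 9 were well above background on all 4 arrays, while 0 of 4 epithelial, 1 of 5 fibroblast and 3 of 6 lymphocyte markers were.

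Of the 42 names, 41 were well above background on all 4 arrays, as were 18462 of all gene names, and these 18462 are called all genes below. Psmb11, a core subunit of the thymus cortex, was not well above background on any array and has no difference here. The 41 passed on all 4 arrays and not through 1 group. No member spot was flagged or saturated, and each member probe was printed at 1 spot.

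Upstream sequence was available for 35 members from RefSeq promoters (GRCm38.p6, from 250 bases before to 50 after the gene start), and a pair of motifs was searched in it because they are the known sites of the factors named above. TGACNNNGC, the core of the antioxidant response element, was searched on both strands, where the other strand reads GCNNNGTCA. It was present in 6 of 35 members (17.1%), against 14% of 27025 genes. The matches, with the motif in capitals and 20 bases on each side where the window allowed, were as follows.
Psmb5: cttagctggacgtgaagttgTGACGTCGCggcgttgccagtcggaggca
Psmb6: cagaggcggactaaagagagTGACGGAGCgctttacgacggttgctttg
Psmc6: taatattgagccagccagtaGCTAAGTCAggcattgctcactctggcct
Psmd12: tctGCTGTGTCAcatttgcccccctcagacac
Psmd9: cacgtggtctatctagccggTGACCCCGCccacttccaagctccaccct
Psme4: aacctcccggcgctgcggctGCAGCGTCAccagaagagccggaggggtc
The Psmb5 stretch lies at chr14:54618014-54618062 on the minus strand. On the plus strand, the Psmb6 stretch lies at chr11:70525328-70525376, the Psmc6 stretch at chr14:45329577-45329625, the Psmd12 stretch at chr11:107479278-107479309, the Psmd9 stretch at chr5:123228139-123228187 and the Psme4 stretch at chr11:30771748-30771796. The motif began 7 bases before the start of Psme4, 9 before Psmb6, 31 before Psmd9, 47 before Psmb5, 227 before Psmc6 and 247 before Psmd12. A match is a run of letters and not a shown site of binding.

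The second motif, CACGTG, reads the same on both strands and does not overlap the first in any of these stretches. It was present in 4 of 35 members (11.4%), against 8.09% of all genes with a window.
Psma4: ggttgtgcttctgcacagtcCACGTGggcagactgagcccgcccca
Psmb10: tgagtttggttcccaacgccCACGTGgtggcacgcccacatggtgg
Psmd9: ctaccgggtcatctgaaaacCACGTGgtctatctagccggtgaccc
Psme3: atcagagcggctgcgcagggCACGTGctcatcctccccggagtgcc
The Psma4 stretch lies at chr9:54950699-54950744, the Psmd9 stretch at chr5:123228119-123228164 and the Psme3 stretch at chr11:101316149-101316194, all on the plus strand, and the Psmb10 stretch lies at chr8:105938483-105938528 on the minus strand. Of the 14 cap subunits with a window, 0 held CACGTG and 2 held TGACNNNGC, and of 11 core subunits 1 held CACGTG and 2 held TGACNNNGC.

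Iron was set against no iron within each siRNA to see how the subunits stood after iron loading. On its brightest probe, nearly every core and cap subunit was slightly higher with iron, and most of the differences were below 25%. In siTfe3/Tfeb cells the median log2 difference was 0.13 over the 14 core and 0.26 over the 17 cap subunits, against 0.00 over all genes (-0.0033). In siGFP cells it was 0.10 over core and 0.15 over cap subunits, against -0.03 over all genes. The largest difference in both siRNA groups was that of Psmb6, which encodes a catalytic beta subunit. It was followed in siTfe3/Tfeb cells by the lid subunits Psmd12 and Psmd11, and in siGFP cells by the chaperone Psmd5 and by Psmd11. No member reached 2-fold in either siRNA group, a size that 1.77% of all genes reached in siTfe3/Tfeb cells and 1.47% in siGFP cells.

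Counted over the 41 measured members, 36 were above 0 with iron in siTfe3/Tfeb cells, where 49.5% of all genes were, and 32 in siGFP cells, where 44.8% were. Members at least 25% higher numbered 11 in siTfe3/Tfeb cells (12.5% of all genes) and 4 in siGFP cells (10.5%). The 11 became 5 under quantile normalization and 6 with a mean over all probes of a gene, and the 4 became 2 with that mean. None was at least 20% lower, the same distance on the log2 scale, in either, against 12.7% and 9.67% of all genes. Differences of more than 2 spot SDs upward were seen for 18 members in siTfe3/Tfeb cells (13.3% of all genes) and 13 in siGFP cells (10.4%), and downward for 1 (12.5%) and 2 (10.3%). The spot SD depends on level, and the median level was 4.74 for members and 0.31 for all genes. Of the 5710 genes with a level of 2 or more, 1150 were that much higher in siTfe3/Tfeb cells and 790 in siGFP cells. Lower by that much were 764 and 839. The members' counts exceeded the all-gene shares in how many lay above 0, and in siGFP cells the share at least 25% higher was near that of all genes. The counts above 0 depended on the probes used. With a mean over all probes the 32 in siGFP cells became 25 and the 36 in siTfe3/Tfeb cells became 32. With a mean over probes well above background they became 27 and 34. The all-gene shares given here are those of the brightest probes.

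**Figure D1:**
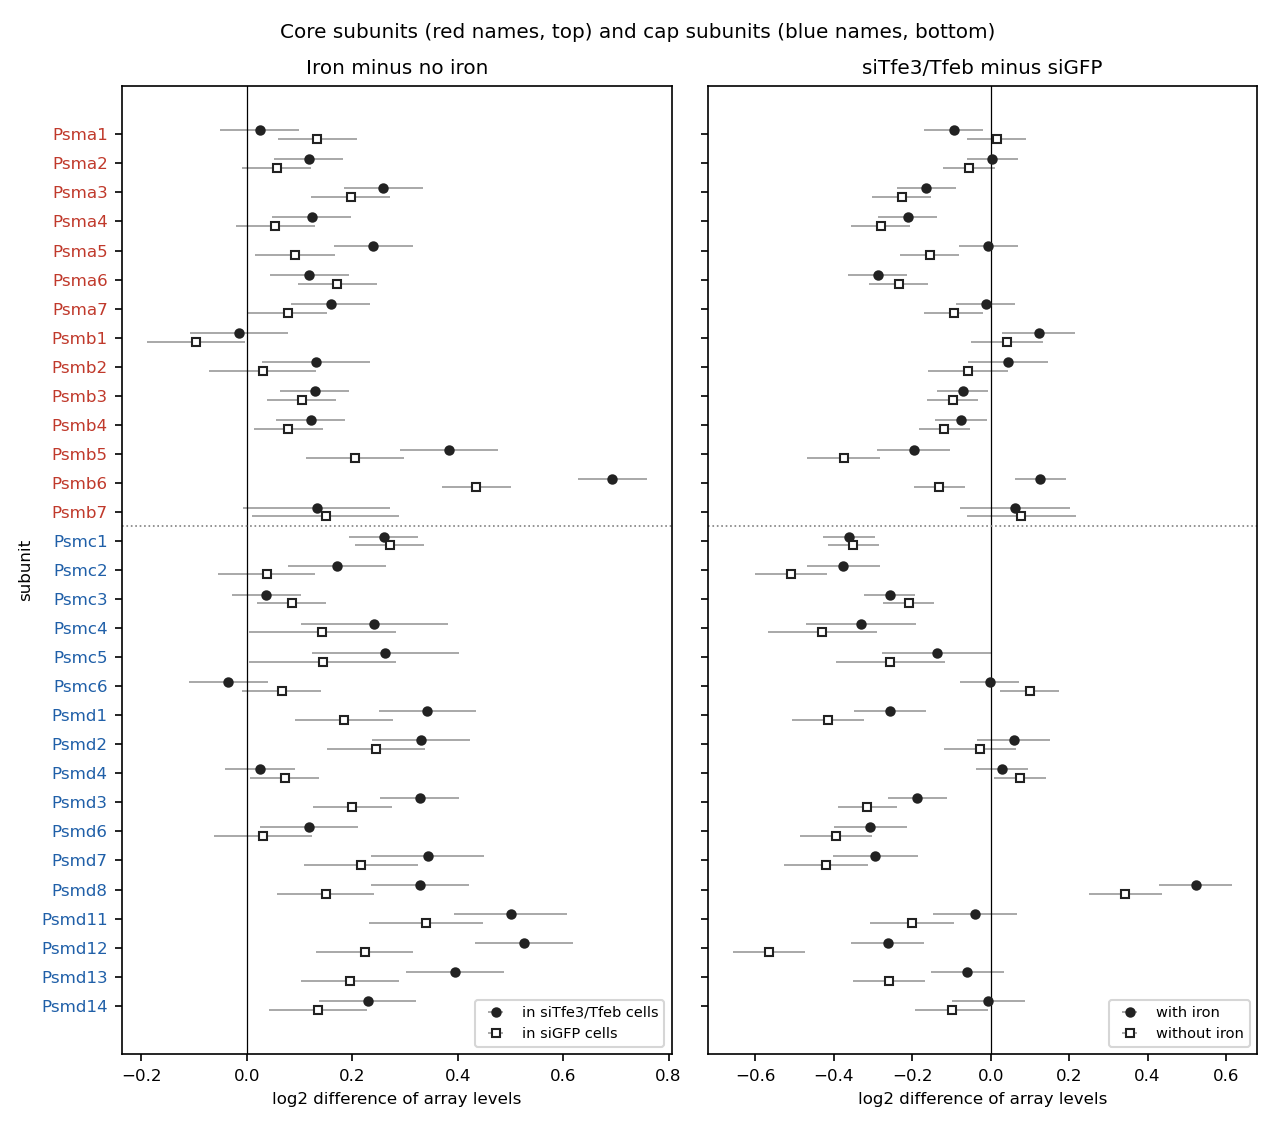
Log2 difference of each of the 14 core (red names) and 17 cap subunits (blue names), for iron minus no iron on the left (filled circles siTfe3/Tfeb cells, open squares siGFP cells) and siTfe3/Tfeb minus siGFP on the right (filled circles with iron, open squares without iron). Horizontal bars are 1 spot SD either way, with 1 array for each group. On the left only Psmb1 and Psmc6 have a point below 0 and Psmb6 lies farthest right; on the right Psmd8 lies apart from the other cap subunits.

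On their brightest probes, all 7 alpha ring subunits were above 0 with iron in both siRNA groups. The range was 0.02 (Psma1) to 0.26 (Psma3) in siTfe3/Tfeb cells and 0.05 (Psma4) to 0.20 (Psma3) in siGFP cells. Of all genes, 49.5% and 44.8% were above 0. The other Psma4 probes gave 0.09, 0.17 and 0.15 in siTfe3/Tfeb cells, but -0.09, -0.07 and -0.04 in siGFP cells. A dim Psma3 probe gave -0.12 in siTfe3/Tfeb cells and 0.12 in siGFP cells. More than 2 spot SDs was reached by 3 of the 7 in siTfe3/Tfeb cells and by 2 in siGFP cells. Psma3, for example, had levels of 5.77 with iron and 5.51 without iron in siTfe3/Tfeb cells, and of 5.93 with iron and 5.73 without iron in siGFP cells. Both iron arrays were above their untreated array, and both siTfe3/Tfeb arrays were below the siGFP array of the same iron state.

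Among the beta subunits, those with a protease site are Psmb6 (cuts after acidic residues), Psmb7 (after basic residues) and Psmb5 (after hydrophobic residues). Psmb6 had levels of 6.995 with iron and 6.30 without iron in siTfe3/Tfeb cells, and of 6.87 with iron and 6.43 without iron in siGFP cells. The 2 iron arrays were the 2 highest, with differences of 0.69 in siTfe3/Tfeb cells and 0.44 in siGFP cells (spot SD 0.066). The other Psmb6 probe gave 0.68 in siTfe3/Tfeb cells and 0.57 in siGFP cells. The brightest Psmb6 probe lies at chr11:70341093-70341152 in the coordinates of the array file (mm9, plus strand), and no mm9 exon annotation was used here.

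Psmb5 had levels of 4.15 with iron and 3.77 without iron in siTfe3/Tfeb cells, against 4.35 with iron and 4.15 without iron in siGFP cells. The untreated siTfe3/Tfeb array was the lowest, and the iron difference was 0.38 in siTfe3/Tfeb cells and 0.21 in siGFP cells (spot SD 0.093). Its single probe lies at chr14:55233161-55233220 (mm9, minus strand). Psmb7 stood at 3.55 with iron and 3.41 without iron in siTfe3/Tfeb cells, against 3.48 with iron and 3.34 without iron in siGFP cells. Those differences, 0.13 and 0.15, were near its spot SD of 0.14. Psmb1, a beta subunit with no protease site, was the core subunit that stood below 0 with iron, at -0.02 in siTfe3/Tfeb cells and -0.10 in siGFP cells, within 2 spot SDs. The remaining beta subunits Psmb2, Psmb3 and Psmb4 differed by 0.12 to 0.13 in siTfe3/Tfeb cells and 0.03 to 0.10 in siGFP cells.

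The 6 ATPases of the cap unfold the substrate. With iron their median difference was 0.21 in siTfe3/Tfeb cells and 0.11 in siGFP cells. Psmc1 had levels of 6.11 with iron and 5.85 without iron in siTfe3/Tfeb cells, and of 6.47 with iron and 6.20 without iron in siGFP cells, differences of 0.26 and 0.27 (spot SD 0.066). It was the only ATPase beyond 2 spot SDs in either siRNA group. Psmc6 differed by -0.04 in siTfe3/Tfeb cells and 0.07 in siGFP cells, and its other probe gave -0.30 and -0.14.

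The cap base also holds Psmd1 and Psmd2, large scaffold subunits that dock ubiquitin carriers and other factors, and Psmd4, which binds ubiquitin chains. Psmd2 had levels of 4.87 with iron and 4.54 without iron in siTfe3/Tfeb cells, and of 4.81 with iron and 4.57 without iron in siGFP cells. Both iron arrays were higher, by 0.33 and 0.24 (spot SD 0.093), and the other probe gave 0.28 and 0.23. Psmd1 differed by 0.34 in siTfe3/Tfeb cells and 0.18 in siGFP cells. Psmd4 differed by 0.02 and 0.07, within 2 spot SDs.

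The lid holds the deubiquitinase Psmd14 among scaffold subunits. On their brightest probes, all 8 lid subunits were above 0 with iron in both siRNA groups, where 49.5% and 44.8% of all genes were. Their medians were 0.34 in siTfe3/Tfeb cells and 0.20 in siGFP cells. At least 25% higher were 6 of 8 in siTfe3/Tfeb cells and 1 of 8 in siGFP cells, a size that 12.5% and 10.5% of all genes reached. These 6 are part of the 11 members whose number quantile normalization lowered to 5. Among other probes well above background, that of Psmd3 gave -0.02 in siTfe3/Tfeb cells and -0.25 in siGFP cells. Those of Psmd13 and Psmd14 gave 0.20 and 0.15 in siTfe3/Tfeb cells and -0.02 and -0.01 in siGFP cells. Those of Psmd6 and Psmd7 were above 0 in both. Psmd12 had levels of 4.66 with iron and 4.13 without iron in siTfe3/Tfeb cells, and of 4.92 with iron and 4.70 without iron in siGFP cells. Its untreated siTfe3/Tfeb array was the lowest of the 4, and the iron differences were 0.53 and 0.22 (spot SD 0.093). Psmd11 had levels of 2.44 with iron and 1.94 without iron in siTfe3/Tfeb cells, and of 2.48 with iron and 2.14 without iron in siGFP cells, differences of 0.50 and 0.34 (spot SD 0.11). Psmd14 differed by 0.23 in siTfe3/Tfeb cells and 0.14 in siGFP cells. The Psmd12 probe lies at chr11:107358963-107359022 (mm9, plus strand).

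Outside core and cap, members went in both directions with iron. Psmd5, a chaperone that holds ATPase subunits during assembly, had levels of 1.85 with iron and 1.47 without iron in siTfe3/Tfeb cells, and of 2.04 with iron and 1.65 without iron in siGFP cells, differences of 0.38 and 0.40 (spot SD 0.10). Its fellow chaperone Psmd9 differed by 0.11 in siTfe3/Tfeb cells and -0.06 in siGFP cells, and Psmd10, also known as gankyrin, by -0.09 and -0.14, all within 2 spot SDs. Psme3, an activator found in the nucleus, differed by 0.25 in siTfe3/Tfeb cells and 0.34 in siGFP cells (spot SD 0.11), and its other probe by 0.37 and 0.24. Psme1, an interferon-inducible activator, differed by 0.00 (0.00052) in siTfe3/Tfeb cells and by -0.09 in siGFP cells, and Psme4, a large activator that caps the barrel, by 0.05 and -0.03. No probe was named Psme2. Psme2b, a near-copy named after it, differed by 0.06 and -0.12, and because transcripts of both could bind such a probe its value is uncertain.

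The 3 lowest iron differences in siGFP cells were those of Psma8, Psmb10 and Psmd10. Psma8, a testis alpha subunit, was dim, with levels of 1.33 with iron and 1.56 without iron in siTfe3/Tfeb cells and of 0.88 with iron and 1.13 without iron in siGFP cells. It was lower with iron in both, by -0.24 and -0.26 on the log2 scale (spot SD 0.10). Psmc3ip, the recombination factor, differed by -0.13 in siTfe3/Tfeb cells and -0.07 in siGFP cells.

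Psmb10 is the inducible subunit that takes the place of Psmb7 in the immunoproteasome. It had levels of 4.89 with iron and 4.71 without iron in siTfe3/Tfeb cells, against 5.24 with iron and 5.48 without iron in siGFP cells. Both siTfe3/Tfeb arrays were below both siGFP arrays, and the iron difference was 0.18 in siTfe3/Tfeb cells and -0.24 in siGFP cells (spot SD 0.075). These have opposite signs, and the difference between them, 0.43, was the largest among the members (spot SD 0.11). The single Psmb10 probe lies at chr8:108459677-108459736 (mm9, minus strand).

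**Figure D2:**
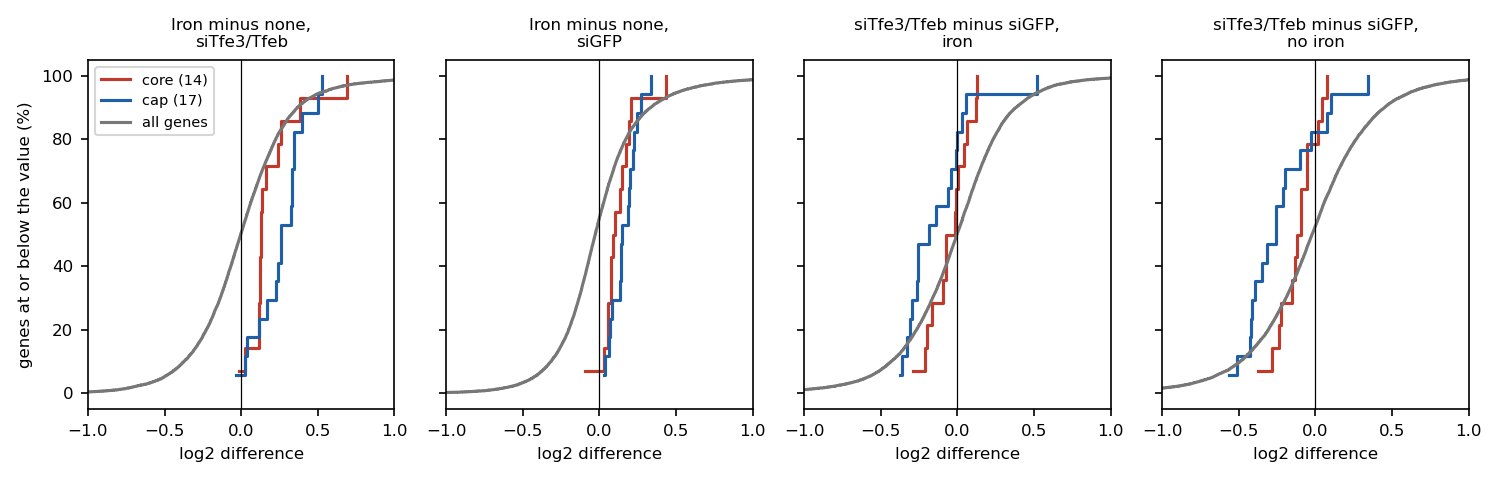
Percentage of genes at or below each log2 difference, for the 14 core subunits (red), the 17 cap subunits (blue) and all genes (grey), in the 4 comparisons with 1 array for each group. The core and cap steps lie right of the grey curve at their medians with iron (0.13 and 0.26 in siTfe3/Tfeb cells), and the cap steps lie left of it with siTfe3/Tfeb siRNA (-0.19 with iron, -0.26 without iron).

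The siRNA comparison asked how the subunits stood when Tfe3 and Tfeb were targeted. Cap subunits were lower with siTfe3/Tfeb than with siGFP, while core subunits were nearer to all genes. The median cap difference was -0.19 with iron and -0.26 without iron, and the median core difference -0.04 with iron and -0.11 without iron, against all-gene medians of 0.00 (-0.0033) with iron and -0.02 without iron. With arrays centred on their median the core median with iron was 0.05 and that of all genes 0.09. Core minus all genes stayed at -0.04, which was bound to happen because centring shifts every gene of an array alike. Scalings that can change this value moved it further from 0. It was -0.12 with quantile normalization, -0.07 with normexp background correction and -0.10 with both. Cap minus all genes was -0.215, -0.223 and -0.20 in these settings. Core minus cap was 0.14 with iron and 0.15 without iron, though among the 8 core and 10 cap subunits with a level from 4 to 6 it was -0.01 (-0.006) with iron.

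Of the 41 measured members, 14 were above 0 with iron, where 49.7% of all genes were, and 10 without iron, where 47.3% were. With arrays centred on their median, which put the median of all genes with iron at 0.09, 23 members were above 0 with iron. Members at least 20% lower numbered 5 with iron (15.9% of all genes; 1 member with that centring) and 10 without iron (18.9%), and 3 were at least 25% higher with iron (13.0%) and 3 without iron (16.3%). At these sizes the members' shares were below those of all genes, except for lower members without iron. By spot error, 15 members were lower by more than 2 spot SDs with iron (16.0% of all genes) and 18 without iron (18.7%), and 3 were higher with iron (14.6%) and 3 without iron (16.3%). Of the 5710 genes with a level of 2 or more, 1255 were that much lower with iron and 1520 without iron. Higher by that much were 1173 and 1127. No member differed 2-fold, against 1.85% of all genes with iron and 2.88% without iron.

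With iron the ATPase ring stood lowest as a class, at a median of -0.29 against -0.12 for the lid. Without iron the ATPase ring and the lid were close, at -0.30 and -0.29. Psmc2 had levels of 4.60 with siTfe3/Tfeb and 4.98 with siGFP under iron, and of 4.43 with siTfe3/Tfeb and 4.94 with siGFP untreated. The differences were -0.38 with iron and -0.51 without iron (spot SD 0.093), and both siTfe3/Tfeb arrays lay below both siGFP arrays. A dimmer Psmc2 probe gave only -0.14 with iron and -0.05 without iron. Psmc1 differed by -0.36 with iron and -0.35 without iron, and its other probe by -0.35 and -0.45. Psmc4 differed by -0.33 and -0.43. Psmc6 was the exception, at 0.00 (-0.0022) with iron and 0.10 without iron.

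In the base, Psmd1 differed by -0.26 with iron and -0.42 without iron (spot SD 0.093), while Psmd2 differed by 0.06 and -0.03 and Psmd4 by 0.03 and 0.08. The 3 Psmd4 probes did not move together. The brightest, at level 6.07, and the next, at level 3.64, were above 0 in both iron states. That next probe gave 0.18 with iron and 0.13 without iron. The dimmest probe, at level -3.65 where the spot SD is 0.27, gave -0.95 and -0.81. Which of the 3 follows the transcript was not tested, so no direction is given for Psmd4.

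In the lid, 7 of 8 subunits were below 0 in both iron states, as 39.2% of all genes were. Psmd12 was lowest without iron at -0.57 and differed by -0.26 with iron. Psmd6 differed by -0.31 with iron and -0.39 without iron, and its other 2 probes gave -0.29 and -0.27 with iron and -0.33 for both without iron. Psmd14 differed by -0.01 and -0.10. The exception was Psmd8, known from yeast as a lid subunit that joins late in assembly, with levels of 4.73 with siTfe3/Tfeb and 4.21 with siGFP under iron, and of 4.40 with siTfe3/Tfeb and 4.06 with siGFP untreated. Both siTfe3/Tfeb arrays were above both siGFP arrays, by 0.52 with iron and 0.34 without iron (spot SD 0.093), and 1 probe carried the gene.

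In the core, Psmb5 was lowest without iron, at -0.38, and differed by -0.20 with iron. Among the alpha subunits Psma6 differed by -0.29 with iron and -0.24 without iron, Psma4 by -0.21 and -0.28, and Psma3 by -0.16 and -0.23. The other beta subunits lay between -0.08 and 0.13 with iron and between -0.13 and 0.08 without iron. Psmb6 stood at 0.13 and -0.13 and Psmb7 at 0.06 and 0.08. The other Psmb6 probe gave -0.04 with iron and -0.15 without iron, so the value above 0 with iron was not seen on it. The next Psma3 probe, at level 3.81, gave 0.03 and -0.16, and the dim Psma3 probe -0.22 and 0.03. All other Psma4 and Psma6 probes were below 0 in both iron states.

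Outside core and cap, Psmb10 had the lowest value without iron, -0.77, and -0.35 with iron (spot SD 0.075). Psmc3ip was lowest with iron, at -0.71, and stood at -0.66 without iron (spot SD 0.11), with its other probe at -0.52 and -0.48. In the other direction, Psmd10 had levels of 3.62 with siTfe3/Tfeb and 3.09 with siGFP under iron, and of 3.71 with siTfe3/Tfeb and 3.23 with siGFP untreated, differences of 0.53 and 0.48 (spot SD 0.14). Psma8 differed by 0.45 and 0.43 (spot SD 0.10). For Psmd5 the values were -0.19 with iron and -0.17 without iron, for Psmd9 0.04 and -0.13, for Psme1 0.09 and 0.00 (0.0025), for Psme3 -0.18 and -0.09, and for Psme4 0.23 and 0.15. Each of these last 5 lay within 2 spot SDs. The other Psme3 probe gave -0.22 with iron and -0.35 without iron.

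Across the 31 core and cap subunits, 29 were above 0 with iron in both siRNA groups, as 32.4% of all genes were, and 21 were below 0 with siTfe3/Tfeb in both iron states, as 39.2% of all genes were. The iron responses in the 2 siRNA groups share no array, and across these 31 genes they gave Pearson's r of 0.845 and Spearman's rho of 0.815, against 0.633 and 0.532 across all genes. The siRNA differences with and without iron also share no array and gave 0.88 and 0.865, against 0.735 and 0.68. Other pairs of comparisons do share an array. Iron in siTfe3/Tfeb cells and siTfe3/Tfeb without iron both use the untreated siTfe3/Tfeb array, with opposite signs. A low value on that array raises the first and lowers the second. The cap medians of 0.26 and -0.26, and the Psmd12 values of 0.53 and -0.57, are thus not separate observations. Genes are not independent replicates, and probe and labelling properties are shared by all 4 arrays.

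**Figure D3:**
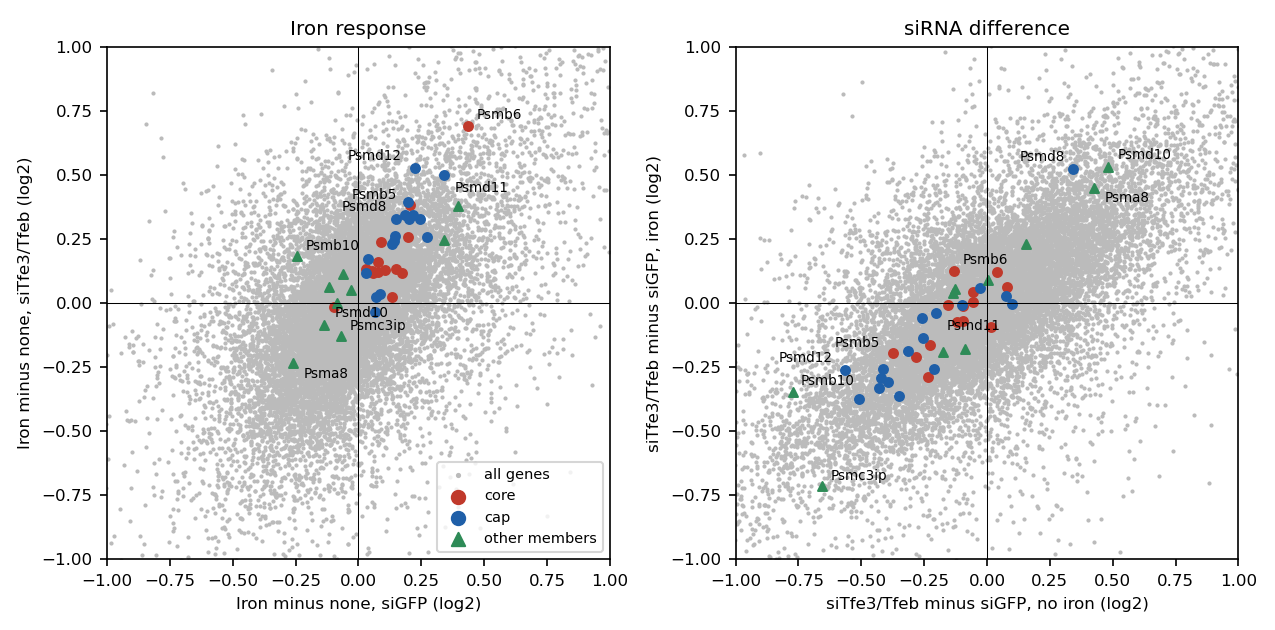
Left, the iron response in siTfe3/Tfeb cells (vertical) against that in siGFP cells (horizontal); right, the siTfe3/Tfeb minus siGFP difference with iron (vertical) against without iron (horizontal), all in log2, with all genes in grey, core in red, cap in blue and the other members as green triangles. On the left 29 of the 31 core and cap subunits lie above 0 on both axes and Psmb10 lies at the upper left; on the right Psmd8, Psmd10 and Psma8 stand at the upper right and Psmc3ip at the lower left.

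The iron response was larger in siTfe3/Tfeb cells than in siGFP cells for 24 of the 31 core and cap subunits. Over the 41 members, 31 had a larger response, against 52.4% of all genes. That share differed by level: it was 59.9% among all genes with a level from 4 to 6, where 8 core and 10 cap subunits lie, and 78.7% among all genes above level 6, where 4 core and 3 cap subunits lie. Above 0 were 6 of the 8 core and 9 of the 10 cap subunits in the first band, and 4 of 4 core and 0 of 3 cap subunits in the second. The median difference of responses was 0.07 for core and 0.12 for cap subunits, against 0.01 for all genes. Under quantile normalization the core median was of the other sign, at -0.02 with normexp. Psmb10 was the only member whose fold with iron was at least 25% higher in siTfe3/Tfeb cells (10.6% of all genes), none was 20% lower (9.86%), and none reached 2-fold (0.715%). Beyond 2 spot SDs, 3 members were higher (4.87% of all genes) and 0 lower (3.74%). After Psmb10 came Psmd12 (0.30) and Psmb6 (0.26), both beyond 2 spot SDs on their brightest probes. The other Psmb6 probe, at level 5.06, gave 0.11, near its spot SD of 0.11. The lowest were Psma1 (-0.11), Psmc6 (-0.10) and Psme3 (-0.09), within 2 spot SDs.

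Iron and siRNA medians of all genes were also taken by level. Among all genes with a level from 4 to 6 the median iron difference was 0.04 in siTfe3/Tfeb cells and 0.00 (-0.0018) in siGFP cells, and above level 6 it was -0.01 and -0.07. The siTfe3/Tfeb minus siGFP median was -0.04 with iron and -0.04 without iron from level 4 to 6, and 0.09 and 0.04 above level 6. Across core subunits, level and iron difference gave Pearson's r of 0.215 in siTfe3/Tfeb cells and 0.301 in siGFP cells. Across cap subunits r was -0.518 and -0.361, and across both together -0.16 and -0.01.

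How firmly a gene's value stands can be read from its other probes. Of the members, 25 had several probes, and 34 further probes of 24 members were well above background on all 4 arrays. They matched the sign of the brightest probe for siTfe3/Tfeb minus siGFP in 24 of 34 with iron (70.6%) and 32 of 34 without iron (94.1%), against 69.7% and 71.4% of the 9660 other probes of all genes. For iron they matched in 23 of 34 in siTfe3/Tfeb cells (67.6%) and 19 of 34 in siGFP cells (55.9%), against 69.0% and 65.5%.

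The size of the iron difference was also smaller on the other probes. Their median was 0.08 in siTfe3/Tfeb cells and -0.01 in siGFP cells, where the brightest probes of the same genes had 0.15 and 0.11. Without iron, the siTfe3/Tfeb difference was alike on both, at -0.23 for the other probes and -0.22 for the brightest. With the mean over all probes of a gene the cap median with iron was 0.19 in siTfe3/Tfeb cells and 0.09 in siGFP cells, and core minus cap in siGFP cells changed sign, to 0.01 (0.0089). The slight iron difference in siGFP cells was thus present on the brightest probes and not in the median of the others. Some members with several probes well above background had every probe above 0 in both siRNA groups. These were Psma6, Psmb6, Psmc1, Psmd2, Psmd6, Psmd7 and Psme3.

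**Figure D4:**
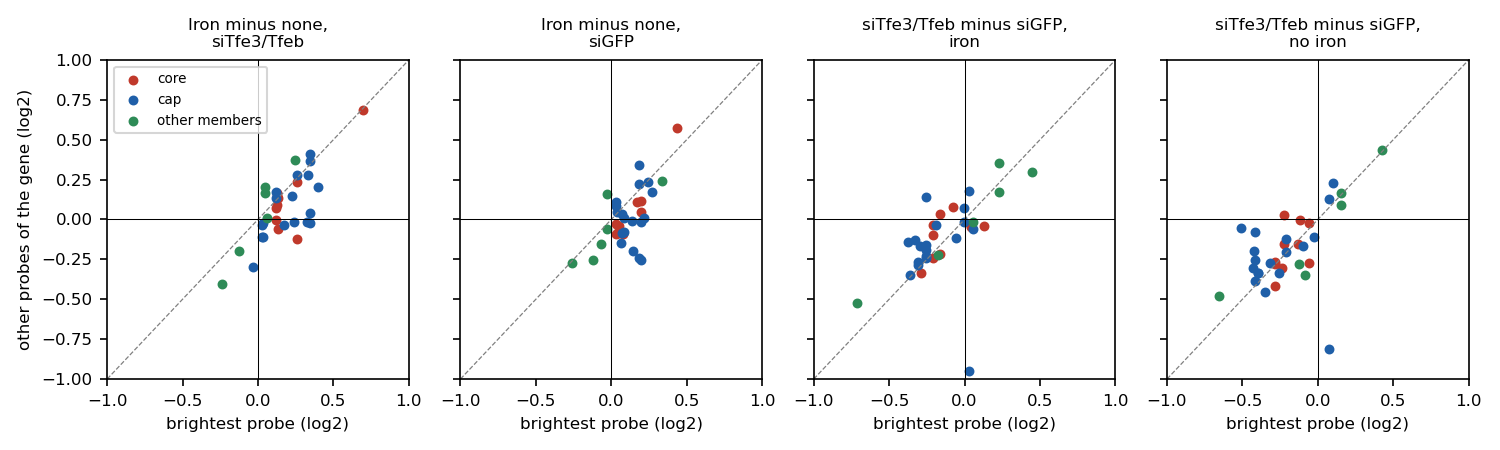
Log2 difference of each of the 34 other probes of a member (vertical) against the brightest probe of the same gene (horizontal) in the 4 comparisons, with core in red, cap in blue, other members in green and equality as the dashed line. In the panel of siTfe3/Tfeb minus siGFP without iron 32 of 34 points share a sign with the brightest probe, and in the panel of iron in siGFP cells 19 of 34 do.

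Of the genes with the antioxidant motif printed above, Psmb6, Psmd12 and Psmb5 had iron differences of 0.69, 0.53 and 0.38 in siTfe3/Tfeb cells and of 0.44, 0.22 and 0.21 in siGFP cells, while Psmc6, Psmd9 and Psme4 had -0.04, 0.11 and 0.05, and 0.07, -0.06 and -0.03. Members with a large iron difference and no match in the window included Psmd11 and Psmd5. Of the genes with CACGTG, Psmb10, Psma4, Psmd9 and Psme3 differed with siTfe3/Tfeb without iron by -0.77, -0.28, -0.13 and -0.09. The other Psme3 probe gave -0.35. With iron the brightest probes of these genes gave -0.35, -0.21, 0.04 and -0.18. Members were mostly lower with or without this motif, as 31 of the 41 measured were below 0 without iron. Cap subunits, of which 0 of 14 with a window held CACGTG, had a median of -0.26 without iron. Whether either motif goes with a difference was not tested, and no binding was measured.

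Other large complexes gave a comparison. With iron, the subunits of the COP9 signalosome, which shares its architecture with the lid, had a median of 0.02 in siTfe3/Tfeb cells and -0.07 in siGFP cells. The CCT chaperonin had 0.00 (0.0012) and -0.08, and the translation factor eIF3, also related to the lid, had -0.13 and -0.07. With siTfe3/Tfeb the medians were -0.09 with iron and -0.23 without iron for COP9, 0.07 and 0.05 for CCT, and -0.03 and -0.02 for eIF3. The COP9 value without iron was close to that of the cap.

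**Figure D5:**
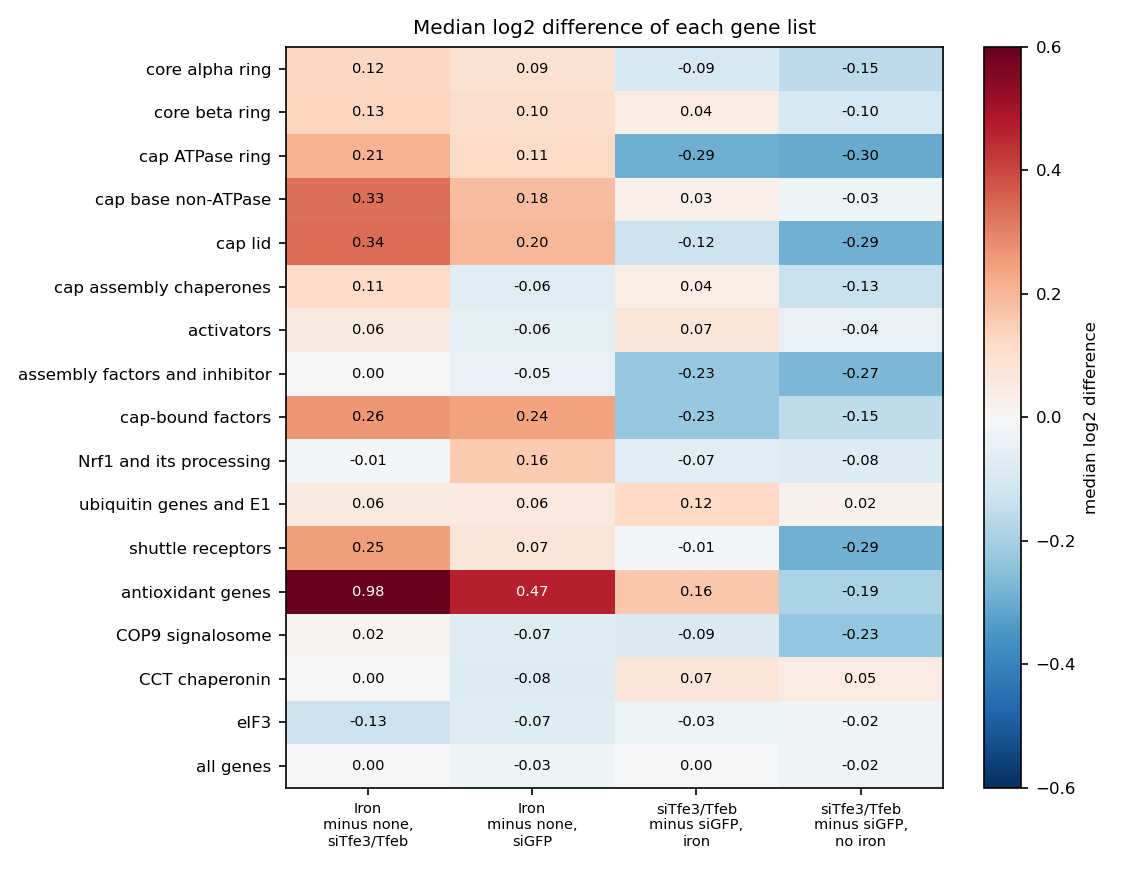
Median log2 difference of each class of proteasome genes, of the 6 related lists, of 3 other complexes and of all genes, in the 4 comparisons, coloured from blue (negative) to red (positive), with the values printed and colours saturated beyond the scale. With iron the cap lid has 0.34 in siTfe3/Tfeb cells and 0.20 in siGFP cells, while COP9, CCT and eIF3 lie between -0.13 and 0.02.

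Genes that build, bind or supply the proteasome but fall outside the naming rule went different ways. Of the 6 assembly factors and inhibitor, 0 were 25% higher or 20% lower with iron in either siRNA group. Of all genes, 12.5% were that much higher and 12.7% that much lower in siTfe3/Tfeb cells. In siGFP cells these shares were 10.5% and 9.67%. With siTfe3/Tfeb, 6 of 6 assembly factors and inhibitor were below 0 with iron and 5 of 6 without iron, with medians of -0.23 and -0.27. For that comparison 49.7% of all genes were above 0 with iron and 47.3% without iron. Without iron the largest were Psmg3 (-0.39), Pomp (-0.30) and Psmg1 (-0.29), chaperones of core assembly. With iron in siGFP cells Psmg2 differed by 0.15, Psmg3 by -0.11 and Pomp by 0.10.

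Among 9 measured factors that bind the cap, 8 were above 0 with iron in siTfe3/Tfeb cells and 7 in siGFP cells. Of all genes, 49.5% and 44.8% were. The medians of these factors were 0.26 and 0.24. Zfand2a, a stress-induced zinc finger protein, differed by 1.04 in both siRNA groups, and its relative Zfand5 by 0.64 in siTfe3/Tfeb cells and 0.67 in siGFP cells. Uchl5, a deubiquitinase of the cap, differed by 0.26 and 0.27. With siTfe3/Tfeb 8 of 9 were below 0 in each iron state, while 49.7% of all genes were above 0 with iron and 47.3% without iron. The 8 included the deubiquitinase Usp14 (-0.23 with iron, -0.44 without iron), the ubiquitin receptor Adrm1 (-0.29 and -0.37) and Zfand2a (-0.26 and -0.27).

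Nfe2l1 differed by -0.05 in siTfe3/Tfeb cells and 0.28 in siGFP cells with iron, and by 0.27 with iron and 0.60 without iron with siTfe3/Tfeb. Nfe2l2 differed by 0.31 with iron in both siRNA groups, and Vcp, the ATPase that extracts Nrf1 from the endoplasmic reticulum, by 0.28 and 0.27. Syvn1, a ubiquitin ligase of that compartment, differed with siTfe3/Tfeb by -0.43 with iron and -0.48 without iron, and Bach1, a repressor of antioxidant genes, by 0.32 and 0.28. RNA levels do not report how much Nrf1 protein was processed.

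The ubiquitin genes and E1 enzymes had medians with iron of 0.06 in both siRNA groups. Uba6, an E1 enzyme, was 0.74 higher with siTfe3/Tfeb with iron and 0.75 without iron, whereas Uba1, the main E1 enzyme, differed by -0.11 and -0.10 and the ubiquitin gene Ubb by 0.14 and 0.17. Iron differences in siGFP cells were 0.12 for Uba1, 0.09 for Uba6 and -0.11 for Rps27a, which encodes ubiquitin fused to a ribosomal protein.

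Of 6 measured shuttle receptors, which carry ubiquitylated proteins, Sqstm1 (p62) was 1.07 higher with iron in siTfe3/Tfeb cells and 1.13 higher in siGFP cells. Ubqln1 differed by 0.47 and 0.28, and Ubqln4 by 0.14 and -0.28. With siTfe3/Tfeb, Ubqln1 differed by -0.52 with iron and -0.71 without iron, Rad23b by -0.40 and -0.49, and Ubqln2 by -0.21 and -0.35. Antioxidant genes with known response elements gave the scale of the iron response. Of these, 11 of 11 were above 0 in both siRNA groups, where 49.5% and 44.8% of all genes were. Their medians were 0.98 in siTfe3/Tfeb cells and 0.47 in siGFP cells. Hmox1, which breaks down haem, differed by 3.45 in siTfe3/Tfeb cells and 2.93 in siGFP cells, Gclm, for glutathione synthesis, by 2.28 and 1.68, and Srxn1, which repairs peroxiredoxins, by 1.20 and 1.14. With siTfe3/Tfeb without iron Pgd differed by -0.64, Srxn1 by -0.59 and Txnrd1 by -0.55. The medians of core and cap subunits were smaller than those of these genes in both siRNA groups.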

How the data were processed

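Total RNA of 4 RAW264 cultures was labelled with Cy3 and hybridised to SurePrint G3 Mouse 8x60K arrays, 1 for each group on 1 slide, and scanned data were extracted with Agilent Feature Extraction 12.0.3.1, per the file headers. The deposited scanner files hold processed signals as intensities, already background-subtracted by that software, per the file headers, with flags for background, saturation and outliers. The authors also deposited a table of log2 values. Set against the scanner files, its differences between arrays had r and slope of 1, and every probe had been set to a median of 0 across arrays, so it gives no absolute level. Its column medians were 0.00131 for siTfe3/Tfeb with iron, -0.087 for siTfe3/Tfeb untreated, 0.0223 for siGFP with iron and -0.00423 for siGFP untreated.

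From the scanner files, outlier-flagged spots were left out, which removed 3 probes, spots of a probe were averaged, log2 processed signal minus the array's 75th percentile over non-control spots was taken, and the probe with the highest mean level stood for each gene. A gene was kept if the software called its probe well above background on each of the 4 arrays. Differences between arrays were described by medians, counts and the spread of repeated spots, with no test, using Python 3.11.15, pandas 2.3.3 and, for alternatives, R 4.3.3 with limma 3.58.1. The computation was tested on simulated data. Named genes are the 3 highest and 3 lowest members in each comparison, the catalytic, inducible, activator, chaperone, ubiquitin-receptor and deubiquitinase members, members below background, names that are no subunit, up to 3 genes of each related list by size of difference in siGFP iron and in siTfe3/Tfeb untreated, and Tfe3 and Tfeb; further members are named after their values were seen. The members and lists were chosen with earlier results of these data known.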

Additional observations from a re-analysis of the deposited data

Results flagged for a closer look

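Psmb10 was the 1 member whose iron difference had opposite signs in the siRNA groups beyond spot error, 0.18 in siTfe3/Tfeb cells and -0.24 in siGFP cells. The difference between the responses was 0.43 on the log2 scale, with a spot SD of 0.11. With 1 array for each group this difference between the siRNA groups was not tested.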

How the results depend on the processing

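No paired analysis was possible because each group had 1 array. Alternatives were quantile normalization, median centring, a 75th percentile over detected probes, normexp background correction with each scaling, the authors' log2 table, the mean over all probes of a gene, 2 other background filters and classes by name alone; the mean over probes well above background and subunits with a level from 4 to 6 were added after seeing the data. All 12 settings kept the sign of the cap median in all 5 comparisons. They also kept that of the core median with iron in both siRNA groups and for siTfe3/Tfeb without iron. The 2 other background filters could not change a core or cap median, because all 31 subunits were well above background on all 4 arrays. The authors' log2 table could only shift these medians, since its differences had r and slope of 1. The core median for siTfe3/Tfeb without iron was -0.19 (-0.1909) at levels from 4 to 6. For siTfe3/Tfeb with iron, median centring gave a core median of 0.05 (0.0524), a cap median of -0.09 (-0.0921), 23 members above 0 and 1 that was 20% lower, since it moved the median of all genes by 0.09; levels from 4 to 6 gave a core median of -0.13 (-0.1293) and a core minus cap value of -0.01 (-0.006), a reversed sign whose cause was not tested. Members 25% higher with iron in siTfe3/Tfeb cells fell to 5 with quantile normalization, with or without normexp, and to 6 with a mean over all probes or over those well above background. In siGFP cells they were 2 with the percentile over detected probes and 2 with the mean over all probes, which also made 1 member 20% lower. With siTfe3/Tfeb and iron, 3 members were 20% lower with the mean over all probes or over those well above background. The difference of iron responses was 25% higher for 3 members with median centring and 2 with the percentile over detected probes. Without a background filter, which brings in Psmb11, 1 member in siTfe3/Tfeb cells was 20% lower with iron, 1 was 20% lower in the difference of responses and 1 differed 2-fold there. Both quantile settings turned the sign of the core median of that difference. Signal limits Psmb11 and Tfeb.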
